A study of Mus musculus with 2 samples.

Results

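The genes described here encode the respiratory chain and the ATP synthase of mouse mitochondria. They were taken by name from the deposited single-cell tables: every gene starting with mt-Nd, mt-Co, mt-Cyt, mt-Atp, Ndufa, Ndufb, Ndufc, Ndufs, Ndufv, Uqcr, Cox4, Cox5, Cox6, Cox7, Cox8 or Atp5. Of the 22023 genes found in both tables, 101 matched, and the 99 with 20 or more UMIs (unique molecular identifiers, each standing for 1 captured transcript) were kept. Cox8b and Cox8c were left out with 2 UMIs each, and Cox7b2 stood just inside the minimum with 20. The mitochondrial genome encodes 13 of the 99 members and the nucleus 86. By complex, the mitochondrial members held 7 subunits of complex I, 1 of complex III, 3 of complex IV and 2 of complex V. The nuclear members held 38, 8, 16 and 16 genes of these complexes, and 8 complex I assembly factors (Ndufaf1 to Ndufaf8) that the prefix Ndufa takes in. Complexes were assigned by gene name alone. Ndufa4, now placed in complex IV, and its paralog Ndufa4l2 thus count as complex I here.

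The cells came from whole embryonic pancreas at stage E15.5, profiled by single-cell RNA sequencing on micro-well cartridges. The Mettl3pKO library came from embryos lacking Mettl3 in the Pdx1+ progenitors of the pancreas, and the WT library from wild-type embryos. Mettl3 encodes the methyltransferase that places N6-methyladenosine on RNA. With a single library of each genotype, differences have no replicate check and were not tested, and all intervals cover counting error only. The Cre line, the deleted exons and the number of embryos in a library are not given in the sources used here. Acinar, duct and islet cells descend from Pdx1+ progenitors, whereas mesenchyme, mesothelium and blood cells do not.

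Complexes I, III and IV pass electrons from NADH to oxygen and pump protons out of the mitochondrial matrix, and complex V uses the returning protons to make ATP. Complexes I, III, IV and V each combine subunits made inside the mitochondrion with subunits encoded in the nucleus and imported. The mitochondrial genome is transcribed into long polycistronic RNAs that are cut into single messages, so its genes share promoters while each message has its own stability.

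Several mitochondrial members overlap in the genome, which bears on how their reads can be told apart. In the GENCODE M21 annotation of GRCm38, mt-Atp8 and mt-Atp6, the membrane subunits 8 and a of complex V, share 43 bases at chrM:7927-7969 on the plus strand and lie on 1 message. The complex I genes mt-Nd4l and mt-Nd4 share 7 bases at chrM:10167-10173. Both overlaps are printed from the GENCODE transcripts with 9 bases on either side in lower case, and capitals mark the shared bases.
mt-Atp8 and mt-Atp6: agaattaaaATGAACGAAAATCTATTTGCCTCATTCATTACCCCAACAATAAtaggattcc
mt-Nd4l and mt-Nd4: cctactacaATGCTAAaaattattc
The 3′ ends of mt-Nd5 and mt-Nd6, on opposite strands, overlap by 14 bases. The sources used here do not state whether counting was stranded, so the values of overlapping genes are uncertain.

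Complete cells numbered 3624 in Mettl3pKO and 6384 in WT, with 65779771 and 80011421 UMIs in all. After filtering, 3622 Mettl3pKO cells and 6034 WT cells remained, with medians of 16481 and 10628.5 UMIs (the lowest totals in the tables were 10719 and 3803). Both libraries shared 33 cell indices. Cells were grouped into classes by marker genes and are called X-like, since they need not be the submitters' classes. The acinar-like class held 2120 Mettl3pKO cells and 1848 WT cells. The duct and trunk-like class held 442 and 1312, the alpha-like class 140 and 285, the beta-like class 164 and 253, and the mesenchyme-like class 283 and 1183. Mettl3 itself stood at 7.26 CPM (counts per 1000000 UMIs in that class) in Mettl3pKO acinar-like cells and 9.30 CPM in WT ones, a ratio of 0.781 (95% interval 0.658 to 0.928). Its ratio was 0.671 in duct and trunk-like cells (0.521 to 0.856) and 0.597 in beta-like cells (0.346 to 0.997). The intervals spanned 1 in alpha-like cells (0.478 to 1.28), mesenchyme-like cells (0.595 to 1.12), mesothelium-like cells (0.911 to 2.80) and a cluster of immune genes (0.501 to 1.89). In erythroid-like cells, with 7 Mettl3pKO UMIs and 35 WT UMIs, the ratio was 0.338 (0.127 to 0.771).

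Acinar-like cells, which make the digestive enzymes, carried far more mitochondrially encoded respiratory transcripts in the Mettl3pKO library. The 13 mitochondrial members made up 10.6% of all UMIs in Mettl3pKO acinar-like cells and 6.99% in WT acinar-like cells, a ratio of 1.52 (1.518 to 1.524). The 86 nuclear members stood the other way, at 2.02% of UMIs in Mettl3pKO and 2.31% in WT, a ratio of 0.873 (0.870 to 0.876). Mettl3pKO acinar-like cells thus held 5.27 mitochondrial UMIs for each nuclear one and WT cells 3.03. Single cells overlapped: the 10th to 90th percentiles of the mitochondrial share ran from 6.72% to 14.1% in Mettl3pKO and from 3.0% to 10.5% in WT.

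The other epithelial classes showed a much smaller gap. Mitochondrial members made up 9.08% of UMIs in Mettl3pKO duct and trunk-like cells and 8.68% in WT ones, a ratio of 1.05 (1.044 to 1.050). Alpha-like cells stood at 8.40% in Mettl3pKO and 7.85% in WT, and beta-like cells at 7.63% and 7.28%. Mesenchyme-like cells, which do not descend from Pdx1+ cells, stood at 5.30% in Mettl3pKO and 5.10% in WT, a ratio of 1.04 (1.034 to 1.045). Nuclear members had ratios below 1 in these 3 epithelial classes: 0.889 in duct and trunk-like, 0.940 in alpha-like and 0.958 in beta-like cells. In mesenchyme-like cells the nuclear ratio was 1.07 (1.056 to 1.078). None of these ratios reached 1.5-fold.

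The order of the classes also differed between the libraries. Among the classes that had at least 30 cells in each library, the mitochondrial share was highest in acinar-like cells in Mettl3pKO, whereas in WT it was highest in duct and trunk-like cells. Mesenchyme-like cells stood lowest in both libraries. The nuclear share was highest in acinar-like cells and lowest in mesenchyme-like cells (1.18% in Mettl3pKO and 1.11% in WT) in both libraries.

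**Figure D1:**
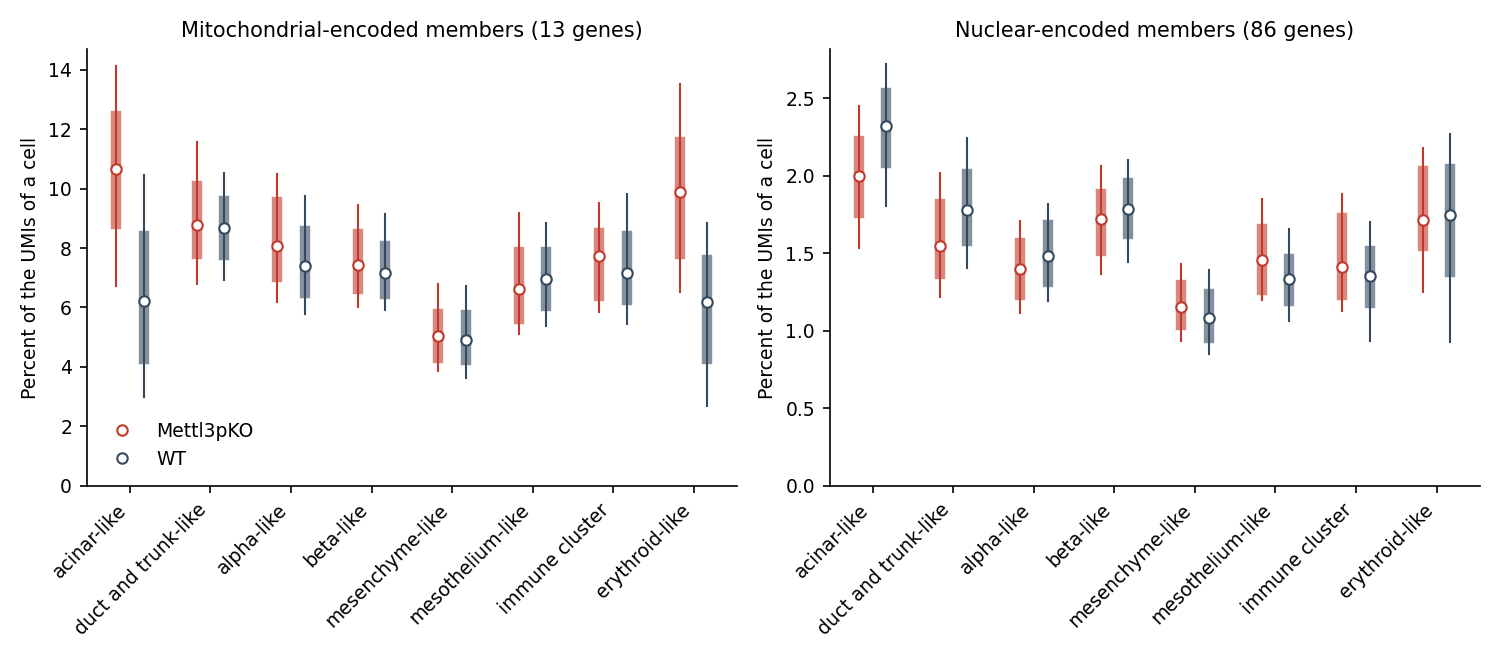
Share of the UMIs of each cell held by the 13 mitochondrial members (left panel) and the 86 nuclear members (right panel), in percent, for the 8 classes that had at least 30 cells in each library. Circles are medians over cells, thick bars the 25th to 75th percentiles and thin lines the 10th to 90th, in red for Mettl3pKO and dark blue for WT. The acinar-like medians of the mitochondrial share are 10.7% in Mettl3pKO and 6.21% in WT, while the duct and trunk-like medians are 8.77% and 8.67%.

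The mitochondrial members did not move as a block in acinar-like cells. A gene was called when it differed by 1.5-fold or more, and 10 of the 13 mitochondrial members were called higher in Mettl3pKO and 0 lower. Over all 13583 genes measured in this class (20 or more UMIs over both libraries), 21.2% were called higher and 8.78% lower. The median log2 ratio was 0.75 over the mitochondrial members and 0.17 over all genes, so that the class as a whole leaned towards higher ratios under scaling by total UMIs. With ratios divided by that median, 6 mitochondrial members were called higher and 0 lower. The shares of all genes called after this division were not computed.

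All 7 mitochondrial complex I genes, which encode the proton-pumping membrane arm, passed 1.5-fold. Their sum was 1.99 times as high in Mettl3pKO (1.981 to 1.994). mt-Nd4l, a small subunit of the arm, had the highest ratio of the 13, with 2270 CPM in Mettl3pKO and 904 CPM in WT, or 2.51-fold (2.48 to 2.55). mt-Nd5 stood at 3228 CPM in Mettl3pKO and 1513 CPM in WT (2.13-fold), and mt-Nd2 at 7444 and 3627 CPM (2.05-fold). For mt-Nd3 the values were 5577 CPM in Mettl3pKO and 2778 CPM in WT (2.01-fold). mt-Nd1 and mt-Nd4 had ratios of 1.91 and 1.87. Because mt-Nd4l and mt-Nd4 share bases, their ratios need not be separate readings, and the part of read assignment in them was not tested. mt-Nd6, the only member on the light strand of the genome, had 1359 UMIs in Mettl3pKO and 544 in WT and a ratio of 1.68 (1.52 to 1.86).

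Complex III and V messages stood between those of complexes I and IV. mt-Cytb, which encodes cytochrome b of complex III, was at 14022 CPM in Mettl3pKO and 9312 CPM in WT, a ratio of 1.51 whose interval (1.499 to 1.513) touches the threshold. mt-Atp6 was at 13068 CPM in Mettl3pKO and 7890 CPM in WT (1.66-fold), and mt-Atp8 at 199 and 121 CPM (1.65-fold).

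The 3 complex IV genes, which encode the catalytic core that reduces oxygen, did not pass 1.5-fold. mt-Co1 stood at 20862 CPM in Mettl3pKO and 17096 CPM in WT (1.22-fold), mt-Co2 at 14928 and 11446 CPM (1.30-fold) and mt-Co3 at 5869 and 5239 CPM (1.12-fold). Their sum had a ratio of 1.23 (1.230 to 1.236). Complex I messages were therefore 35.2% of the mitochondrial UMIs in Mettl3pKO acinar-like cells and 26.9% in WT ones, and complex IV messages 39.2% in Mettl3pKO and 48.3% in WT.

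**Figure D2:**
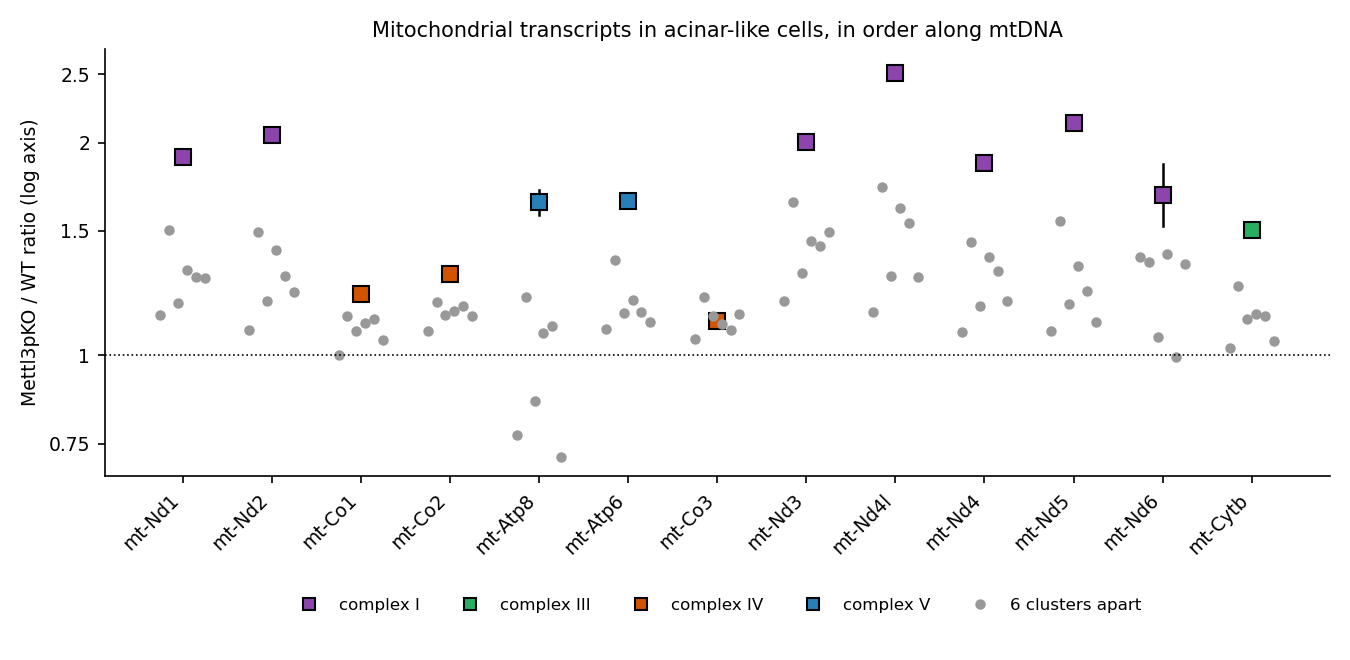
Ratio of Mettl3pKO to WT CPM (log axis) for the 13 mitochondrial members in acinar-like cells, in their order along mitochondrial DNA. Squares, coloured by complex, are the whole class with 95% counting intervals, and grey points the 6 acinar-like clusters taken apart. Whole-class squares of complex I lie between 1.68 and 2.51 and those of complex IV between 1.12 and 1.30, while most cluster points lie below the squares.

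The acinar-like class was made of 6 clusters that the libraries filled very differently. A cluster led by the serpin genes Serpina6 and Serpina10 held 39.1% of the Mettl3pKO acinar-like cells and 5.36% of the WT ones. Another, led by the mitotic gene Ube2c and by Fam83d, held 32.6% of the Mettl3pKO cells and 6.11% of the WT cells, and a cluster led by the DNA synthesis genes Rrm2 and Fen1 held 13.7% and 7.58%. A cluster led by the trypsinogen genes Gm10334 and Prss3 held 1.84% of the Mettl3pKO cells and 27.4% of the WT cells. The WT cells of this cluster had a median of 10645 UMIs, below the lowest total of any Mettl3pKO cell (10719). Cells this shallow could thus be counted in WT only, and the part of this in the cluster shares was not tested. Clusters led by Cckar and Gc and by Cckar and Gatm (Cckar is the cholecystokinin receptor of acinar cells) held 7.59% and 5.24% of the Mettl3pKO cells, against 30.1% and 23.4% of the WT cells. Mitochondrial genes were left out of the genes used for clustering. Their UMIs did count in the total by which each cell was scaled.

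Within these clusters the mitochondrial gap was smaller. In the Serpina6 cluster mitochondrial members held 11% of UMIs in Mettl3pKO and 10.3% in WT, a ratio of 1.07. In the Rrm2 cluster the shares were 10.7% in Mettl3pKO and 8.16% in WT, and their ratio of 1.31 was the highest of the 6. The Ube2c cluster stood at 11.4% in Mettl3pKO and 9.92% in WT, and the trypsinogen-led cluster at 5.90% and 5.04%. With the 6 clusters weighted equally, the ratio was 1.17 for mitochondrial members and 0.928 for nuclear ones, against 1.52 and 0.873 for the whole class. In each cluster the mitochondrial ratio stayed above 1 and the nuclear ratio below 1.

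Taken 1 by 1, the mitochondrial messages kept part of their spread within clusters. All of mt-Nd1, mt-Nd2, mt-Nd3, mt-Nd4, mt-Nd4l and mt-Nd5 had ratios above 1 in 6 of 6 clusters. The same held for mt-Cytb, mt-Atp6, mt-Co2 and mt-Co3, while mt-Nd6 and mt-Co1 lay above 1 in 5 of 6. The geometric mean over clusters was 1.42 for mt-Nd4l, 1.41 for mt-Nd3 and 1.28 for both mt-Nd1 and mt-Nd2. It was 1.26 for mt-Nd4 and 1.24 for both mt-Nd5 and mt-Nd6. Lower means were seen for mt-Atp6 (1.18), mt-Co2 (1.15), mt-Co3 and mt-Cytb (both 1.12) and mt-Co1 (1.08). Calls at 1.5-fold were few, and 0 of 13 were called lower in any cluster. In the Rrm2 cluster 4 of 13 were called higher, where 14.1% of all genes were called higher and 6.49% lower. In the trypsinogen-led cluster 1 of 13 was called higher (11.7% and 16.3% of all genes), and in the Cckar and Gatm cluster 1 of 13 (13.1% and 5.48%). The count was 0 in the Serpina6 cluster (8.44% and 8.06%), the Ube2c cluster (9.75% and 6.21%) and the Cckar and Gc cluster (8.8% and 6.24%). mt-Atp8 ran against the rest, with ratios between 0.719 and 1.21 and a geometric mean of 0.938, although its whole-class ratio was 1.65.

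The clusters themselves spanned a wide range of mitochondrial levels in both libraries. In Mettl3pKO, the trypsinogen-led cluster held 0.538 times the mitochondrial share of the Serpina6 cluster, and in WT 0.490 times. Nuclear members had ratios of 1.04 in Mettl3pKO and 1.07 in WT between the same clusters. The drop was deepest for complex I: its messages in the trypsinogen-led cluster stood at 0.323 of the Serpina6 level in Mettl3pKO and 0.272 in WT. mt-Nd4l reached 504 CPM in the trypsinogen-led cluster and 2412 CPM in the Serpina6 cluster of Mettl3pKO, and 328 and 2095 CPM in those of WT. Under scaling by total UMIs mt-Co3 hardly moved, at 5838 and 6016 CPM in Mettl3pKO and 5376 and 5698 CPM in WT.

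Digestive enzyme messages take up a large part of the UMIs in the trypsinogen-led cluster, 26.3% in each library, which lowers the share of every other gene. With 36 acinar enzyme genes taken out of the denominator, complex I messages still stood at 0.399 of the Serpina6 level in Mettl3pKO and 0.339 in WT, and complex IV messages at 0.981 and 0.902. Nuclear members then stood at 1.29 times the Serpina6 level in Mettl3pKO and 1.33 times in WT. The share of complex I among mitochondrial UMIs, which the enzymes cannot change, was 21.2% in the trypsinogen-led cluster and 35.3% in the Serpina6 cluster of Mettl3pKO, and 18.7% and 33.7% in those of WT. Across single acinar-like cells, the enzyme share and the share of complex I among complex I and IV UMIs had a Spearman rho of -0.637 in Mettl3pKO (2120 cells) and -0.750 in WT (1848 cells). This is a description over cells that share a library and differ in depth.

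**Figure D3:**
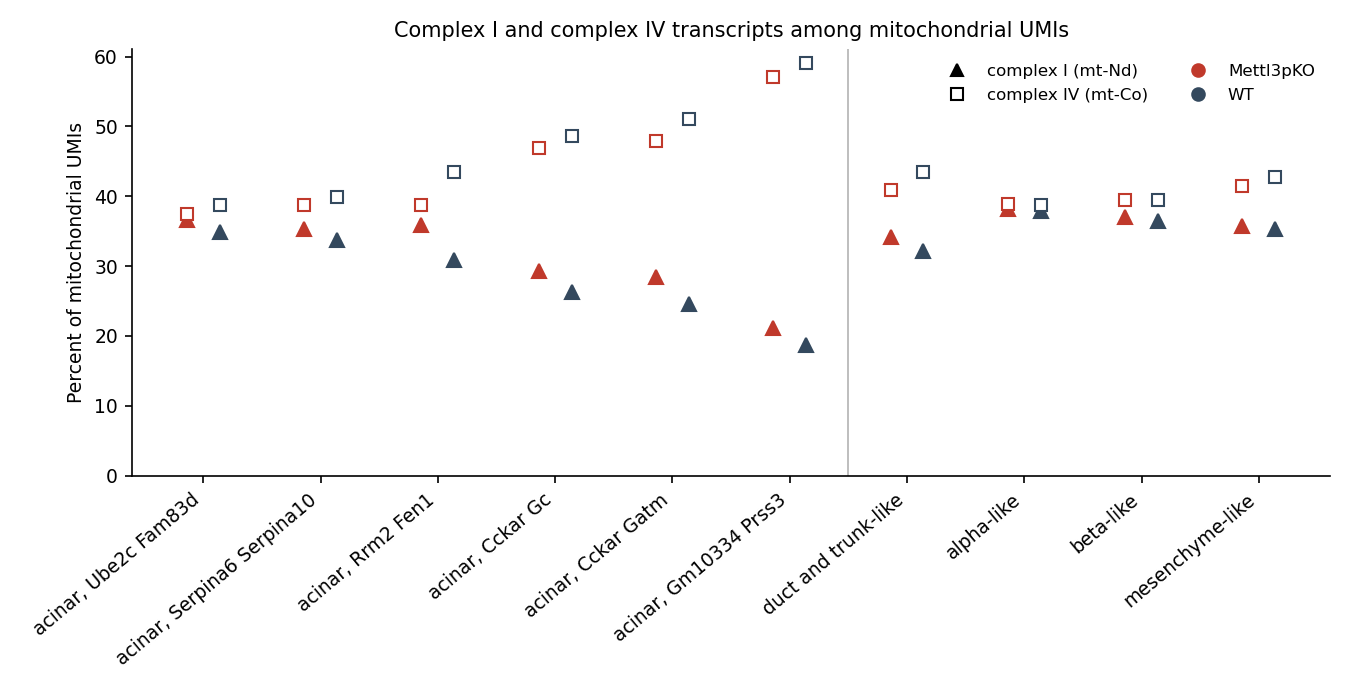
Percent of mitochondrial UMIs from complex I genes (filled triangles) and complex IV genes (open squares) in the 6 acinar-like clusters, named by their leading genes, and in 4 other classes, in red for Mettl3pKO and dark blue for WT. In both libraries the complex I share is lowest and the complex IV share highest in the trypsinogen-led cluster, where they stand at 21.2% and 57.1% in Mettl3pKO and 18.7% and 59.0% in WT.

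Depth, stress genes, enzyme share and the sex of the cells also differed between the libraries in acinar-like cells. Mettl3pKO acinar-like cells had a median of 17418 UMIs and WT ones 13135.5. In bins of UMIs per cell the mitochondrial ratio was 1.67 from 10719 up to 13000 UMIs, 1.49 up to 16000, 1.43 up to 20000, 1.35 up to 30000 and 1.26 from there on. No Mettl3pKO cell had fewer than 10719 UMIs, whereas 596 WT acinar-like cells did, with a mitochondrial share of 5.19%. These WT cells count in the whole-class ratio of 1.52. Among 15 dissociation stress genes 8 were called higher in Mettl3pKO and 0 lower, against 21.2% and 8.78% of all genes. Their median log2 ratio was 0.60, against 0.17 over all genes, with Hspa1b at 35.4 CPM in Mettl3pKO and 10.4 CPM in WT. Acinar enzyme genes held 7.77% of UMIs in Mettl3pKO and 13.9% in WT. Without them in the denominator the mitochondrial ratio was 1.42. Cells with a Y-linked UMI and no Xist numbered 1101 in Mettl3pKO and 168 in WT, and cells with Xist and no Y-linked UMI 433 and 1361. The ratio was 1.46 within the cells of the Y-linked kind and 1.52 within those with Xist. The part of stress genes in the result was not tested.

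In duct and trunk-like, alpha-like, beta-like and mesenchyme-like cells no mitochondrial member reached 1.5-fold. In duct and trunk-like cells 0 of 13 were called, where 11.7% of all genes were called higher and 9.94% lower. The same count of 0 held in alpha-like cells (7.77% and 5.02% of all genes), beta-like cells (12.4% and 4.92%) and mesenchyme-like cells (8.82% and 6.11%). Duct and trunk-like cells had the widest spread of these 4 classes, from mt-Nd3 at 4014 CPM in Mettl3pKO and 3130 CPM in WT (1.28-fold) to mt-Atp8. Complex I messages were 34.2% of mitochondrial UMIs in Mettl3pKO and 32.1% in WT there, while in alpha-like cells they were 38.1% and 37.9%. Acinar enzyme genes held 1.36% of UMIs in Mettl3pKO duct and trunk-like cells and 0.345% in WT ones, and their part in these values was not tested.

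In several classes the counted ratios of mt-Atp8 and mt-Atp6 lay on opposite sides of 1, although the genes lie on 1 message. mt-Atp8 was counted at a far lower level than mt-Atp6. In duct and trunk-like cells mt-Atp8 stood at 171 CPM in Mettl3pKO and 239 CPM in WT, a ratio of 0.716 (0.671 to 0.763), and mt-Atp6 at 10911 and 9722 CPM, a ratio of 1.12. mt-Atp8 had ratios of 0.780 in alpha-like, 0.697 in beta-like, 0.755 in mesenchyme-like, 0.767 in mesothelium-like cells and 0.680 in a cluster of mast and macrophage genes (the immune cluster). In these classes mt-Atp6 lay between 1.03 and 1.13. mt-Atp8 was not called lower in any of them. Reads over the shared bases printed above can be given to either gene, and the part of this in these ratios was not tested.

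Of the 3 smaller classes, erythroid-like cells had a mitochondrial ratio as high as that of acinar-like cells. Mitochondrial members held 7.28% of UMIs in Mettl3pKO mesothelium-like cells (76 cells) and 6.98% in WT ones (202 cells), and 7.77% and 7.52% in the immune cluster (74 and 122 cells). None of the 13 was called in either (14.1% of all genes called higher and 12.8% lower in mesothelium-like cells, and 18.7% and 9.98% in the immune cluster). Erythroid-like cells stood at 9.96% in Mettl3pKO (48 cells) and 6.54% in WT (112 cells), with 8 of 13 members called higher, where 28.7% of all genes were called higher and 28.0% lower. A cluster led by the heme synthesis gene Alas2 held 46 of the 48 Mettl3pKO cells and 43 of the 112 WT cells, and the other erythroid-like cells lay in a cluster led by Car2 and Slc4a1. Acinar enzyme genes held 5.31% of the UMIs of erythroid-like cells in Mettl3pKO and 2.52% in WT. Of the 15 dissociation stress genes, 10 were called higher and 2 lower in these cells (median log2 ratio 0.80). The part of acinar transcripts and of stress genes in the mitochondrial ratio was not tested.

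Nuclear members shifted little in acinar-like cells, and downwards for the most part. Of 83 measured, 4 were called higher and 4 lower, against 21.2% and 8.78% of all genes in the class. Ratios stood below 1 for 68 of the 83, and the median log2 ratio was -0.19, against 0.17 over all genes. With ratios divided by the median of all genes, the calls over all members came to 9 higher and 15 lower, against 14 and 4 under scaling by total UMIs. The shares of all genes given above belong to scaling by total UMIs, and those after the division were not computed. By complex, the summed ratios were 0.843 for complex I, 0.895 for complex III, 0.943 for complex IV and 0.831 for complex V. The 8 complex I assembly factors summed to 1.31 (1.27 to 1.35), with 4 above 1 and 4 below and a median ratio of 1.06. Of these, 2 were called higher (Ndufaf4 and Ndufaf1).

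Ndufaf4, an assembly factor that helps to build complex I, had the highest ratio of the nuclear members in acinar-like cells. It stood at 109 CPM in Mettl3pKO and 52.0 CPM in WT, or 2.10-fold (1.97 to 2.23). Ratios of Ndufaf4 also passed 1.5-fold in duct and trunk-like cells (87.1 CPM in Mettl3pKO and 47.9 CPM in WT, 1.82-fold), beta-like cells (49.2 and 27.5 CPM, 1.79-fold) and alpha-like cells (30.9 and 19.8 CPM, 1.56-fold). In mesenchyme-like cells it was 27.2 CPM in Mettl3pKO and 25 CPM in WT, a ratio of 1.09 (0.865 to 1.36). Mesothelium-like cells had 60 UMIs in Mettl3pKO and 32 in WT (2.99-fold). Acinar enzyme genes held 1.46% of UMIs in Mettl3pKO mesothelium-like cells and 0.202% in WT ones, and 9 alpha cell markers summed to 3079 CPM in Mettl3pKO and 163 CPM in WT. The part of these epithelial transcripts in the Ndufaf4 ratio was not tested. Within the acinar-like clusters Ndufaf4 lay above 1 in 6 of 6 and passed 1.5-fold in 4.

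Ndufaf1, another complex I assembly factor, followed Ndufaf4 in part. Its level was 34.2 CPM in Mettl3pKO and 19.4 CPM in WT in acinar-like cells (1.77-fold), and 36.5 and 22.0 CPM in duct and trunk-like cells (1.66-fold). Both genes had lower levels in the trypsinogen-led cluster: Ndufaf4 stood there at 0.370 of its Serpina6 level in Mettl3pKO and 0.344 in WT, and Ndufaf1 at 0.501 and 0.364. The other genes called higher in acinar-like cells were Cox6b2, a complex IV subunit known from testis (21.8 CPM in Mettl3pKO and 11.9 CPM in WT), and Ndufa4l2, with 37 UMIs in Mettl3pKO and 15 in WT and an interval of 0.891 to 3.26.

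Subunit c of the complex V rotor is made from 3 genes, Atp5g1, Atp5g2 and Atp5g3, whose mature proteins are identical. Atp5g1 had the lowest ratio of all members in acinar-like cells, with 500 CPM in Mettl3pKO and 840 CPM in WT, or 0.595 (0.584 to 0.607). Atp5g2 went the other way, at 926 CPM in Mettl3pKO and 717 CPM in WT (1.29), and Atp5g3 stood at 830 and 1023 CPM (0.812). The same contrast ran along the acinar-like clusters within each library. Atp5g1 was higher in the trypsinogen-led cluster than in the Serpina6 cluster, at 771 and 443 CPM in Mettl3pKO and 911 and 478 CPM in WT. Atp5g2 was lower there, at 577 and 920 CPM in Mettl3pKO and 507 and 908 CPM in WT. Between the libraries and within clusters, Atp5g1 lay below 1 in 6 of 6 (0.692 to 0.927) and Atp5g2 above 1 in 6 of 6 (1.01 to 1.14). In duct and trunk-like cells Atp5g1 stood at 295 CPM in Mettl3pKO and 324 CPM in WT, and Atp5g2 at 886 and 876 CPM.

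Promoters of these oppositely placed paralogs and of Ndufaf4 are printed from RefSeq (GRCm38.p6, 250 bases before to 50 after the gene start, 5′ to 3′ on the strand of the gene), and capitals mark the motif CGCATGCG of nuclear respiratory factor 1 (NRF1), a transcription factor known for respiratory genes. Ndufaf4 lies at chr4:24897833-24898132 on the plus strand, Atp5g1 at chr11:96075582-96075881 and Atp5g2 at chr15:102670998-102671297, both on the minus strand.
Ndufaf4: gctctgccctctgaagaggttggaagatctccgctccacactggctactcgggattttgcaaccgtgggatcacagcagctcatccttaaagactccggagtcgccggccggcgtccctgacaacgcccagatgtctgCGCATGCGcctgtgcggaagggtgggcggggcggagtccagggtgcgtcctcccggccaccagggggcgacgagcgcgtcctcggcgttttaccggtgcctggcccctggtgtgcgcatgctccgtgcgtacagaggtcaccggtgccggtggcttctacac
Atp5g1: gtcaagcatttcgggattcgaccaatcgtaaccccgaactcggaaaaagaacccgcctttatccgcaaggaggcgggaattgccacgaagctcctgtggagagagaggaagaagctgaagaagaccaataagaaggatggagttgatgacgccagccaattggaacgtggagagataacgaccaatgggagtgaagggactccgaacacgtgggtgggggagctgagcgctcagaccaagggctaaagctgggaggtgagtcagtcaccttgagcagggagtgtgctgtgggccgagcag
Atp5g2: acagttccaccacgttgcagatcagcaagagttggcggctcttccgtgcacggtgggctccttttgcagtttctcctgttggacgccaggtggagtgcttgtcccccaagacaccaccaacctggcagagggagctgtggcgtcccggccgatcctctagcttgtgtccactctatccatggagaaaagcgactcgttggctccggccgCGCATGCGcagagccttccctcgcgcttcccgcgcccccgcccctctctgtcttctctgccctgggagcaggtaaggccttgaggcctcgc
Ndufaf4 and Atp5g2 hold the motif once each, and the Atp5g1 window does not hold these letters. Of the 86 nuclear members, 70 matched a promoter by symbol. The NRF1 motif, searched on both strands, was in 11 of the 70 (15.7%), among them Ndufa11 and Uqcrc1, and in 2.07% of 27025 genes. AAGATGGC, from the motif of YY1, was in 10 of the 70 (14.3%), among them Ndufs6, and in 3.19% of genes. CCGGAAGT, an ETS family motif, was in 5 of the 70 (7.14%) and in 4.31% of genes. Atp5j held both the NRF1 and the YY1 letters and Uqcr11 the NRF1 and the ETS letters. A match describes the letters only.

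The other nuclear members called lower in acinar-like cells belong to complex I. Ndufa11, an accessory subunit of the membrane arm, stood at 35.9 CPM in Mettl3pKO and 59.7 CPM in WT (0.601). Ndufb10, also of the membrane arm, stood at 91.4 CPM in Mettl3pKO and 143 CPM in WT (0.641), and Ndufs8, an iron-sulfur core subunit, at 40.9 and 62.0 CPM (0.659). Ndufv2, an iron-sulfur subunit of the NADH-binding module, came just short at 210 and 311 CPM (0.675). Uqcrfs1, the Rieske iron-sulfur protein of complex III, lay above 1, at 293 CPM in Mettl3pKO and 225 CPM in WT (1.30). The mitochondrial and nuclear subunits of complex I thus lay on opposite sides, with summed ratios of 1.99 and 0.843.

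Nuclear members in duct and trunk-like cells also lay mostly below 1. Of 83 members measured, 2 were called higher (Ndufaf4 and Ndufaf1) and 2 lower, against 11.7% and 9.94% of all genes, and the median log2 ratio was -0.22, against 0.0071 over all genes. Only 1 of 37 complex I subunits and 1 of 16 complex V members lay above 1. Low ratios were seen for Atp5h, a stalk subunit of complex V (239 CPM in Mettl3pKO and 329 CPM in WT, 0.726), Ndufv2 (163 and 222 CPM, 0.735), Ndufb4 (84.6 and 115 CPM, 0.735) and Ndufb10 (63.1 and 86.9 CPM, 0.726). Uqcrfs1 stood at 243 CPM in Mettl3pKO and 200 CPM in WT (1.22), and Uqcr10, a small complex III subunit, at 152 and 126 CPM (1.21). The genes called lower were Cox7a1 and Cox4i2. The libraries filled the 4 clusters of this class differently. A cluster led by Onecut2 and Cdh6 held 141 Mettl3pKO cells and 68 WT cells and had a nuclear ratio of 1.04. The others had ratios of 0.829 (led by Spp1 and Kif23, 240 and 369 cells), 0.931 (led by Grin3a and Fgfr3, 15 and 401 cells) and 0.901 (led by Spp1 and Fmo2, 46 and 474 cells).

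Alpha-like and beta-like cells showed few differences in nuclear members. In alpha-like cells 1 of 82 was called higher (Ndufaf4) and 0 lower, against 7.77% and 5.02% of all genes, with a median log2 ratio of -0.076 against -0.0010 over all genes. Cox7a2l, a factor of respiratory supercomplexes, was at 277 CPM in Mettl3pKO and 223 CPM in WT (1.24). In beta-like cells 2 of 83 were called higher and 1 lower, against 12.4% and 4.92% of all genes: Ndufaf4, and the assembly factors Ndufaf5 (27 and 18 UMIs) and Ndufaf7 (16 and 40 UMIs, lower). The beta-like median was -0.079 against 0.035 over all genes. Ndufa4, a subunit now placed in complex IV, was at 328 CPM in Mettl3pKO and 278 CPM in WT there (1.18), and Ndufa6 at 161 and 198 CPM (0.811). In beta-like cells 11 mesenchyme markers summed to 2072 CPM in Mettl3pKO and 134 CPM in WT. The part of these transcripts in the beta-like ratios was not tested.

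In mesenchyme-like cells most nuclear members had ratios above 1, but few were called. Ratios exceeded 1 for 64 of 84 measured, and 5 were called higher and 0 lower, against 8.82% and 6.11% of all genes. There the median log2 ratio was 0.10 against 0.018 over all genes. Uqcr10 stood at 96.8 CPM in Mettl3pKO and 62.9 CPM in WT (1.54), and Cox5a, a complex IV subunit, at 78.1 and 51.9 CPM (1.5). Atp5j, a stalk subunit of complex V, was at 212 and 167 CPM (1.27). On the low side stood Ndufa4l2 at 54.1 CPM in Mettl3pKO and 79.9 CPM in WT (0.678) and Cox7a2l at 162 and 209 CPM (0.776). The 3 others called higher had few UMIs: Ndufaf5 (61 and 108), Cox4i2 (13 and 24) and Cox7a1 (10 and 11). In mesothelium-like cells 5 of 82 nuclear members were called higher and 0 lower, against 14.1% and 12.8% of all genes. In the immune cluster 5 of 82 were called higher and 2 lower, against 18.7% and 9.98%.

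**Figure D4:**
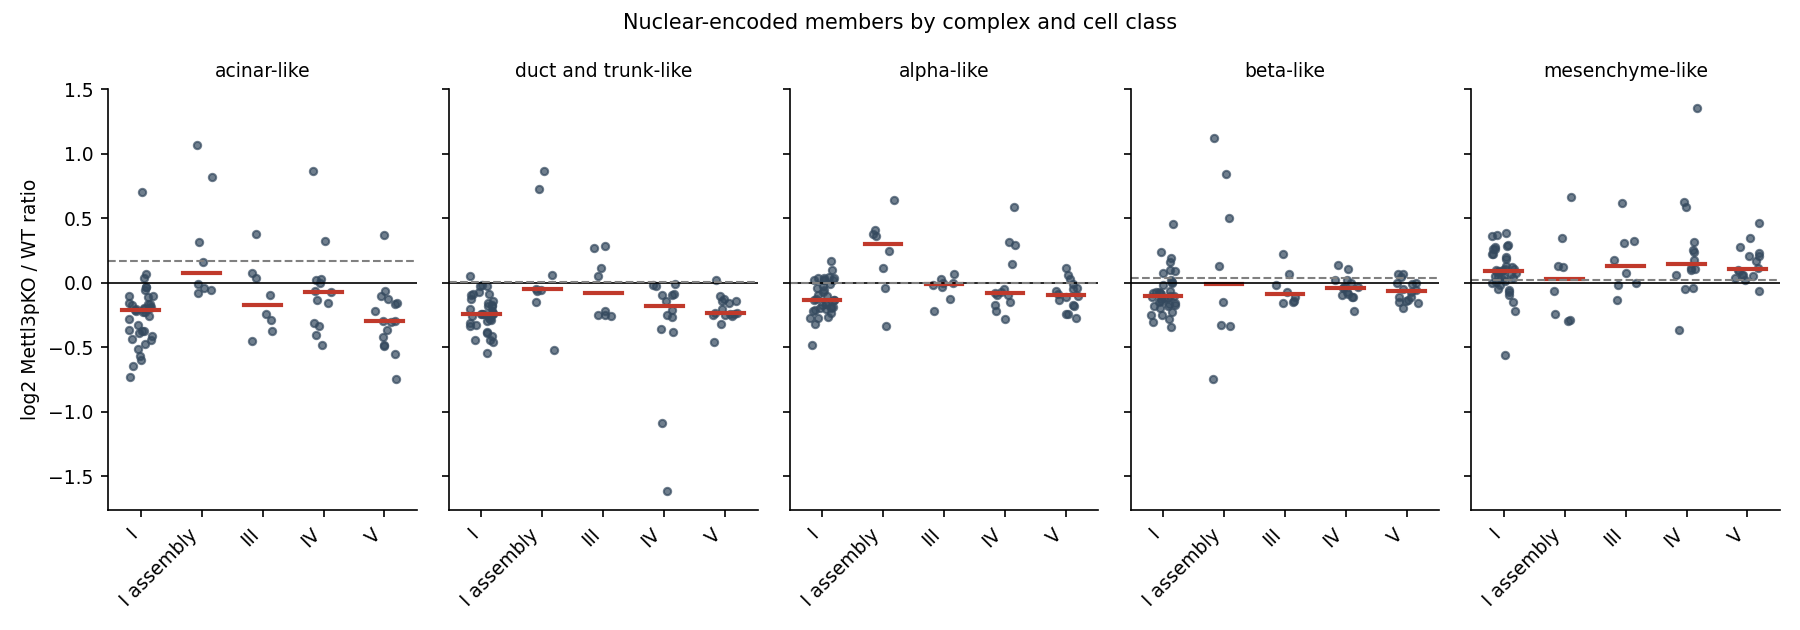
log2 ratio of Mettl3pKO to WT CPM for each nuclear member with 20 or more UMIs over both libraries (dark points), by complex, in the 5 main classes. Red bars are medians of the points and the dashed grey line is the median of all genes in the class. In acinar-like cells the complex I and V medians (-0.21 and -0.30) lie below the line at 0.17, and in mesenchyme-like cells all 5 medians lie between 0.028 and 0.14.

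Some nuclear members marked single classes in both libraries. Cox6a2, the heart and muscle form of a complex IV subunit, was found in beta-like cells at 39.9 CPM (32.9 to 48.1) in Mettl3pKO and 46.5 CPM (40.1 to 53.5) in WT. Duct and trunk-like cells had 0 UMIs of Cox6a2 in both libraries, which allows up to 0.405 CPM in Mettl3pKO and 0.196 CPM in WT. Alpha-like cells, the other main islet class, had 0 UMIs in Mettl3pKO and 1 in WT. The immune cluster held 7 and 13 UMIs. Cox6a1, the form found in most tissues, stood at 526 CPM in Mettl3pKO and 519 CPM in WT in beta-like cells.

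Other restricted forms followed different classes. Cox7a1, also a muscle form, was at 29.2 CPM in Mettl3pKO and 31.4 CPM in WT in beta-like cells and at 27.2 and 36.1 CPM in acinar-like cells, but at 4.47 and 5.57 CPM in alpha-like cells. In duct and trunk-like cells it stood at 8.51 CPM in Mettl3pKO (63 UMIs) and 18.2 CPM in WT (278 UMIs), a ratio of 0.468. Cox6b2 reached its highest levels in mesothelium-like cells, at 54.3 CPM in Mettl3pKO and 71.0 CPM in WT. Ndufa1, an X-linked accessory subunit of complex I, was at 617 CPM in Mettl3pKO and 665 CPM in WT in beta-like cells, 404 and 416 CPM in alpha-like cells, and 106 CPM in both libraries in mesenchyme-like cells. The ranges over the libraries do not overlap between these 3 classes.

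Ndufa4l2, a paralog of Ndufa4 known for its induction by low oxygen, was highest in pericyte and smooth muscle-like cells. It stood at 393 CPM (317 to 481) in 16 Mettl3pKO pericyte and smooth muscle-like cells and 483 CPM (430 to 542) in 56 WT ones, where it was among the leading genes of the cluster. Mesothelium-like cells had 34.3 CPM in Mettl3pKO and 26.5 CPM in WT, and epithelial classes 2.85 CPM or less. Erythroid-like cells had 0 UMIs in Mettl3pKO and 37 in WT, or 24.2 CPM in WT. Cox4i2, the lung form of a complex IV subunit that also responds to oxygen, shared this class, at 104 CPM in Mettl3pKO and 75.4 CPM in WT. In duct and trunk-like cells Cox4i2 had 4 and 28 UMIs.

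**Figure D5:**
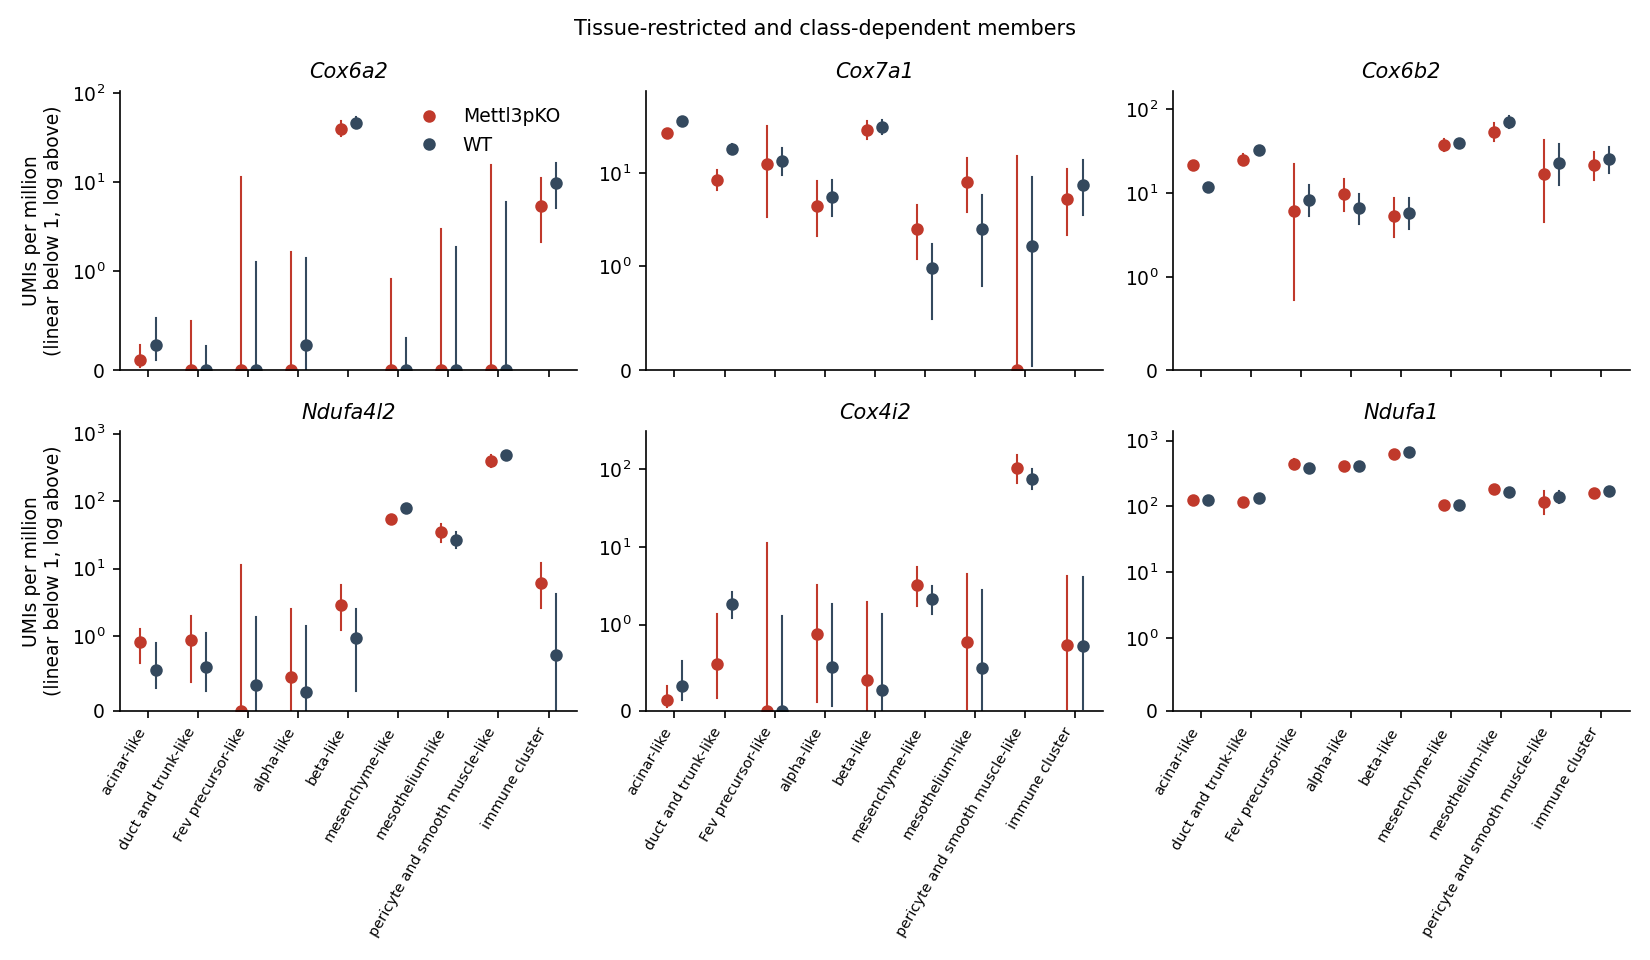
Level in CPM (linear below 1, log above) of 6 class-dependent members in 9 classes, with exact Poisson 95% intervals, in red for Mettl3pKO and dark blue for WT. Cox6a2 stands at 39.9 in Mettl3pKO and 46.5 in WT beta-like cells and Ndufa4l2 at 393 and 483 in pericyte and smooth muscle-like cells.

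Other genes of the pathway were read beside the members in acinar-like cells. Of 4 complex II genes, all nuclear, 0 were called, with Sdhb at 102 CPM in Mettl3pKO and 149 CPM in WT (0.680). Of 5 genes for electron carriers and the complex III subunit Cyc1, 0 were called higher and 1 lower. Cycs, the mobile electron carrier cytochrome c, was at 91.6 and 127 CPM (0.723) and was not called. Of 30 measured assembly factors outside the name rule 4 were called higher and 1 lower, and of 22 measured import genes 1 and 0. Of 19 glycolysis genes 2 were called higher and 2 lower. Of 18 citric acid cycle genes 0 were called, and of 24 genes for expression of mitochondrial DNA 3 were called higher and 1 lower, among them Trmt10c, a subunit of the enzyme that cuts mitochondrial precursor RNA, at 38.9 CPM in Mettl3pKO and 23.0 CPM in WT. Of 77 mitochondrial ribosome genes 7 were called higher and 0 lower, with Mrpl43 at 187 and 80.8 CPM and Mrps2 at 106 and 48.7 CPM. Biogenesis regulators had 3 of 9 called higher, with Esrra at 15.3 CPM in Mettl3pKO and 9.12 CPM in WT, Nrf1 at 24.6 and 16.3 CPM and Ppargc1a at 9.57 and 6.32 CPM. These shares stand beside 21.2% and 8.78% of all genes. The mitochondrial ribosomal RNAs were not analysed here.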

How the data were processed

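The authors deposited unscaled UMI counts, made with the BD Rhapsody whole-transcriptome pipeline version 1.8, per the file headers. The submitters' processing notes name mm10 and Seurat, with no role given. Each table ended inside a line, so 1 incomplete cell per library was dropped, and cells shallower than the last complete one were not analysed here.

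Cells needed 200 genes or more and no more than 25% of UMIs from mitochondrial genes. Scrublet, run per library, marked 1 Mettl3pKO cell and 338 WT cells, which were removed; it did not work on Mettl3pKO, so doublets remain there. Clusters came from scanpy 1.11.5 (2000 variable genes without mitochondrial, globin, ribosomal protein and Y-linked genes, Xist and Tsix, 30 components, 15 neighbours, Leiden resolution 1.0) and took the class with the highest marker score. Nuclear members could enter that clustering. UMIs were summed per library and class and divided by all UMIs of the class. Ratios carry exact conditional binomial 95% intervals and levels exact Poisson ones. A count of 0 was read as allowing 3. A gene was measured with 20 or more UMIs over both libraries in the class, and classes needed 30 cells in each library.

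The text names all mitochondrial members; per main class, up to 4 nuclear members with the highest and 4 with the lowest ratio (by the interval bound nearest 1, with at least 50 UMIs and 20 CPM); tissue-restricted and paralogous members; and examples from other lists. A gene that the rule names in alpha-like cells is not reported here. Uqcrc1, Uqcr11, Atp5j and Ndufs6 beside the motifs, and genes named because they were called or have few UMIs, were chosen after their values were seen. The members, markers and lists were chosen with earlier results of these data known. The 8-letter motif cores were chosen after a search with longer forms of the NRF1 and YY1 motifs had been seen. Ratio intervals and calls were tested on simulated Poisson sums. Alternatives covered filters, doublets, clustering, depth, denominators, sex and thresholds.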

Additional observations from a re-analysis of the deposited data

Results flagged for a closer look

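The summed nuclear members lay on different sides of 1 in different classes, and with 1 library per genotype the difference between classes was not tested. Their summed Mettl3pKO/WT ratio was 0.873 in acinar-like, 0.889 in duct and trunk-like, 0.940 in alpha-like, 0.958 in beta-like and 0.961 in erythroid-like cells. It was 1.07 in mesenchyme-like cells, 1.07 in the immune cluster and 1.13 in mesothelium-like cells. With the mitochondrial members left out of the denominator, the ratio in erythroid-like cells was 0.997. It was then 0.908 in acinar-like, 0.893 in duct and trunk-like, 0.946 in alpha-like and 0.962 in beta-like cells. The mesenchyme-like, immune and mesothelium-like values were then 1.07, 1.07 and 1.13. Median depth was higher in Mettl3pKO in each of these 8 classes, for example 13433 UMIs in Mettl3pKO and 8911 in WT for mesenchyme-like cells. In cells with 13000 UMIs or more the nuclear ratio was 0.868 in acinar-like, 0.865 in duct and trunk-like, 0.943 in alpha-like, 0.962 in beta-like and 1.07 in mesenchyme-like cells. Acinar enzyme genes held 1.46% of UMIs in Mettl3pKO and 0.202% in WT mesothelium-like cells, 1.11% and 0.253% in the immune cluster, and 0.237% and 0.169% in mesenchyme-like cells, and their part in these ratios was not tested.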

How the results depend on the processing

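No paired analysis was possible because each genotype had 1 library. The acinar-like mitochondrial ratio stayed above 1 (1.17 to 1.62) and the nuclear one below 1 (0.815 to 0.928) under all 13 alternatives. The mesenchyme-like mitochondrial ratio turned to 0.999 in cells with Xist and no Y-linked UMI. With nuclear-encoded genes as the denominator the mitochondrial ratio was 1.58 (acinar), 1.05 (duct), 1.08 (alpha) and the nuclear ratio was 0.908 (acinar). In cells with 13000 UMIs or more the mitochondrial ratio was 1.39 (acinar), 1.09 (duct), 1.05 (alpha), 1.06 (beta), 1.07 (mesenchyme) and the nuclear ratio was 0.868 (acinar), 0.865 (duct). Under a stricter cell filter (500 genes, 10% mitochondrial UMIs) the mitochondrial ratio was 1.28 (acinar), 1.00 (duct), 1.05 (alpha), 1.03 (beta), 1.03 (mesenchyme) and the nuclear ratio was 0.877 (acinar), 0.850 (duct), 0.925 (alpha), 0.977 (beta). With each cell named by its own markers the mitochondrial ratio was 1.5 (acinar), 1.02 (duct), 1.06 (alpha), 1.07 (beta), 1.17 (mesenchyme) and the nuclear ratio was 0.868 (acinar), 0.851 (duct), 0.971 (alpha), 0.971 (beta), 1.13 (mesenchyme). With every cell weighing the same the mitochondrial ratio was 1.62 (acinar), 1.03 (duct), 1.09 (alpha), 1.03 (mesenchyme) and the nuclear ratio was 0.870 (acinar). With clusters weighted equally the mitochondrial ratio was 1.17 (acinar), 1.07 (duct), 1.03 (mesenchyme) and the nuclear ratio was 0.928 (acinar), 0.918 (duct). In cells with a Y-linked UMI and no Xist the mitochondrial ratio was 1.46 (acinar), 1.04 (duct), 1.10 (alpha), 1.07 (mesenchyme) and the nuclear ratio was 0.911 (acinar), 0.955 (alpha), 0.979 (beta), 1.10 (mesenchyme). In cells with Xist and no Y-linked UMI the mitochondrial ratio was 1.52 (acinar), 1.12 (duct), 1.15 (beta), 0.999 (mesenchyme) and the nuclear ratio was 0.879 (acinar), 0.901 (beta), 1.05 (mesenchyme). Without acinar enzyme genes in the denominator the mitochondrial ratio was 1.42 (acinar), 1.06 (duct) and the nuclear ratio was 0.815 (acinar), 0.898 (duct). With marked doublets kept the mitochondrial ratio was 1.02 (duct), 1.09 (alpha), 1.03 (mesenchyme) and the nuclear ratio was 0.861 (duct), 0.916 (alpha), 0.973 (beta). Without the top 5% of doublet scores the mitochondrial ratio was 1.04 (duct), 1.06 (beta), 1.03 (mesenchyme) and the nuclear ratio was 0.871 (duct), 0.926 (alpha). At Leiden resolution 2.0 the mitochondrial ratio was 1.05 (duct), 1.08 (alpha), 1.06 (beta), 1.03 (mesenchyme) and the nuclear ratio was 0.978 (beta). With no cap on mitochondrial UMIs the mitochondrial ratio was 1.08 (alpha), 1.04 (beta), 1.02 (mesenchyme). At a looser threshold (log2 ratio of 0.32) the members called numbered 43 in acinar, 21 in duct, 8 in alpha, 9 in beta and 15 in mesenchyme, and at 2-fold 5, 2, 0, 1 and 1, against 18, 4, 1, 3 and 5 at 1.5-fold. With 100 UMIs per gene beta had 1 and mesenchyme 3. The shares of all genes called at these other settings were not computed, so these counts have no baseline. The denominator without enzyme genes, the clusters taken apart and the depth bins were chosen after seeing the data. The cause of these shifts was not tested. Genes with few UMIs limit the calls in the smaller classes.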
